A study of Homo sapiens with 16 samples.

Results

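Cyclin-dependent kinase inhibitors were examined in cells of the line SW480, derived from a human colorectal cancer, in which the APC protein is truncated and beta-catenin is active without a Wnt signal. Of the 7 genes CDKN1A, CDKN1B, CDKN1C, CDKN2A, CDKN2B, CDKN2C and CDKN2D, 6 had a probe set paired with that gene alone in the array annotation, and these 14 probe sets were taken from the 54675 on the array. CDKN2C had 0 such probe sets and was not analysed here. The 16 Affymetrix arrays fell into 4 groups of 4, with replicates lettered A to D. The siTAZ cells carried an empty vector and received an siRNA against TAZ, the coactivator of TEAD factors that WWTR1 encodes. The sibcat cells carried the same empty vector and received an siRNA against beta-catenin (gene CTNNB1). The APC cells stably carried a vector for wild-type APC, with the control siRNA. The siGFP cells, the controls, had the empty vector and the control siRNA. Every group had therefore been transfected with an siRNA, and each target was lowered in a single siRNA condition. Whether the APC arrays came from a single stable clone is not stated. The series asks how TAZ takes part in Wnt signalling. Each comparison with siGFP asks which inhibitors change with a lowered TAZ, with a lowered beta-catenin or with added APC, and the comparisons among these conditions ask whether the responses differ.

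Cyclin-dependent kinases drive the cell cycle once bound to cyclins, and the inhibitors hold them back. The CIP/KIP proteins p21 (CDKN1A), p27 (CDKN1B) and p57 (CDKN1C) bind complexes of cyclin and kinase, above all those of CDK2. The INK4 proteins p16 (CDKN2A), p15 (CDKN2B), p18 (CDKN2C) and p19 (CDKN2D) bind CDK4 and CDK6 and keep them from D-type cyclins. CDKN2A and CDKN2B lie side by side, and CDKN2A also encodes p14ARF from another reading frame. MYC is a textbook repressor of CDKN1A and CDKN2B. CDKN1C lies in an imprinted domain. Much of the control of p27 acts on the protein, through SKP2 and CKS1B, and is not visible on an mRNA array.

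Promoters are shown for CDKN1A, CDKN1B and CDKN2B. Each has a single start in the table, and their patterns across the groups differ from one another. CDKN2D also has a single start and is not shown. Each sequence runs 5′ to 3′ on the gene's strand, from 250 bases before to 50 bases after the RefSeq start (build GRCh38.p14), at chr6:36678464-36678763 on the plus strand for CDKN1A, chr12:12717118-12717417 on the plus strand for CDKN1B and chr9:22009256-22009555 on the minus strand for CDKN2B. Capitals mark matches, on either strand, to the GC box (GGGCGG), the MYC E-box (CACGTG), the TEAD core (GGAATG) and the TCF/LEF core (CTTTGA), and neighbouring GC boxes can overlap.
CDKN1A: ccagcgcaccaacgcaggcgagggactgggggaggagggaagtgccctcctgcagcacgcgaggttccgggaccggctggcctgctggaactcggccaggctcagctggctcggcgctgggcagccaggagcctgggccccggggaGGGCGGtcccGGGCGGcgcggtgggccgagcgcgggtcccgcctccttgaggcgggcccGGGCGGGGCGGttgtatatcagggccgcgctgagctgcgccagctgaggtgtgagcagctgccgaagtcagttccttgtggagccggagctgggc
CDKN1B: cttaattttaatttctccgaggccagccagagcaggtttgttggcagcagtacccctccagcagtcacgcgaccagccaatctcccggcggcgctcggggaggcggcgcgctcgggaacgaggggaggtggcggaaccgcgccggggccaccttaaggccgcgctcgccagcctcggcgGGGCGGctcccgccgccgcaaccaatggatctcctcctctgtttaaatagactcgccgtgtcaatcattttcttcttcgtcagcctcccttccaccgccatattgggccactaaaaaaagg
CDKN2B: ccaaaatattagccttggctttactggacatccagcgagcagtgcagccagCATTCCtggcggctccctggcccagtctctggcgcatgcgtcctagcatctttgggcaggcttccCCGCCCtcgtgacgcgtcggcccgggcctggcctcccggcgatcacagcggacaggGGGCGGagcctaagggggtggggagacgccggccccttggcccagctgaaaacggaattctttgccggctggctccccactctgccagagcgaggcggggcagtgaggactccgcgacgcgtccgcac
CDKN1A had 4 GC boxes, 2 of them overlapping, CDKN1B had 1, and CDKN2B had 2 together with 1 TEAD core. A GC box was present in 45% of the 35116 promoters of the table, a TEAD core in 14%, a TCF/LEF core in 12.9% and an E-box in 7.26%. The E-box and the TCF/LEF core had 0 matches in these 3 windows. A match describes letters in the window and shows no binding. CDKN1C had no entry.

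WWTR1 and CTNNB1 were lower in the cells that received the siRNA against them. WWTR1 lay between 6.77 and 7.06 in siTAZ cells, against 10.13 to 10.39 in siGFP cells, on the log2 scale of the deposited values. CTNNB1 lay between 9.94 and 10.43 in sibcat cells, against 12.97 to 13.27 in siGFP cells. The targeted genes also changed elsewhere, with WWTR1 higher by 0.70 in sibcat cells and by 0.73 in APC cells (limma adjusted p = 1.83e-06 and 1.19e-06) and CTNNB1 lower in APC cells (-0.38, adjusted p = 0.0184). The rises of WWTR1 passed at 2 of its 3 probe sets. In APC cells 2 of the 5 APC probe sets rose, by 0.41 and 1.11 (limma adjusted p = 0.00183 and 2.70e-05), the second from a probe set whose means, 5.07 in APC and 3.96 in siGFP cells, lay below the median of all values, while the brightest differed by 0.08 (adjusted p = 0.743). Which of them lie in the introduced sequence is not known, so the APC label is checked only in part. Of 10 colorectal epithelial markers 8 lay above 5.09, the median of all values, in every group. KRT20 and LGALS4 lay below it. Above that median in every group were also 3 of 8 fibroblast and endothelial markers (COL1A1, PDGFRB and PECAM1). So was 1 of 4 measured leukocyte markers (CD79A). COL1A2 and PTPRC were among those below it. The leukocyte marker CD14 averaged 5.20 in siTAZ, 6.24 in sibcat and 5.08 in APC cells, against 4.60 in siGFP cells, and its part in the results was not tested. Array medians ran from 5.06 to 5.12. The ACTB level at the 3′ probe set minus that at the 5′ one, which depends on RNA integrity and labelling, averaged 2.57 ± 0.39 in siTAZ, 2.30 ± 0.24 in sibcat and 2.08 ± 0.32 in APC cells, against 2.05 ± 0.16 in siGFP cells (SD, n = 4 each). For GAPDH the same difference averaged 0.51 ± 0.11 in siTAZ, 0.34 ± 0.06 in sibcat and 0.27 ± 0.04 in APC cells, against 0.35 ± 0.07 in siGFP cells. In siTAZ cells, with that ACTB value as a covariate, CDKN1A rose by 0.41, CDKN1B by 0.63 and CDKN1C by 0.49, CDKN2B fell by 0.58, and all 4 passed. Fewer cells with an mRNA and less of it per cell cannot be told apart on these arrays.

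All 6 measured inhibitor genes changed in at least 1 condition, and no condition moved them all the same way. In siTAZ cells the 3 CIP/KIP genes rose, while CDKN2B and CDKN2D fell. In sibcat cells CDKN1A fell to 41.7% and CDKN1C to 26.4% of the siGFP signal, and CDKN1B, CDKN2B and CDKN2D rose. In APC cells CDKN1A and CDKN1C fell as well, CDKN2B rose 2.16-fold, CDKN2A rose, and CDKN1B fell slightly. Each gene is judged here by its probe set with the highest mean over the 16 arrays, called changed at a limma adjusted p under 0.05 over all 54675 probe sets. The calls numbered 3 higher and 2 lower in siTAZ cells, where 27% of all 19775 genes were called, 15.2% higher and 11.8% lower. They numbered 3 higher and 2 lower in sibcat cells, where 32.9% of genes were called, 17.1% higher and 15.8% lower. In APC cells they numbered 2 higher and 3 lower, where 30.7% of genes were called, 15% higher and 15.7% lower. The arrays did not overlap with those of siGFP for 4 of the 6 genes in siTAZ, 5 in sibcat and 4 in APC cells, against 29.6%, 33.5% and 31.7% of all genes. The median log2 difference of the 6 genes was 0.15 in siTAZ, 0.27 in sibcat and -0.10 in APC cells, against 0.02, 0.00 and 0.01 over all genes. Over all their 14 probe sets, 9 were called in each of the 3 comparisons with siGFP, against 20.3%, 25.6% and 24% of all probe sets in siTAZ, sibcat and APC cells. The 3 comparisons share the siGFP arrays. With 4 arrays a group, the smallest exact two-sided permutation p is 0.0286.

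**Figure D1:**
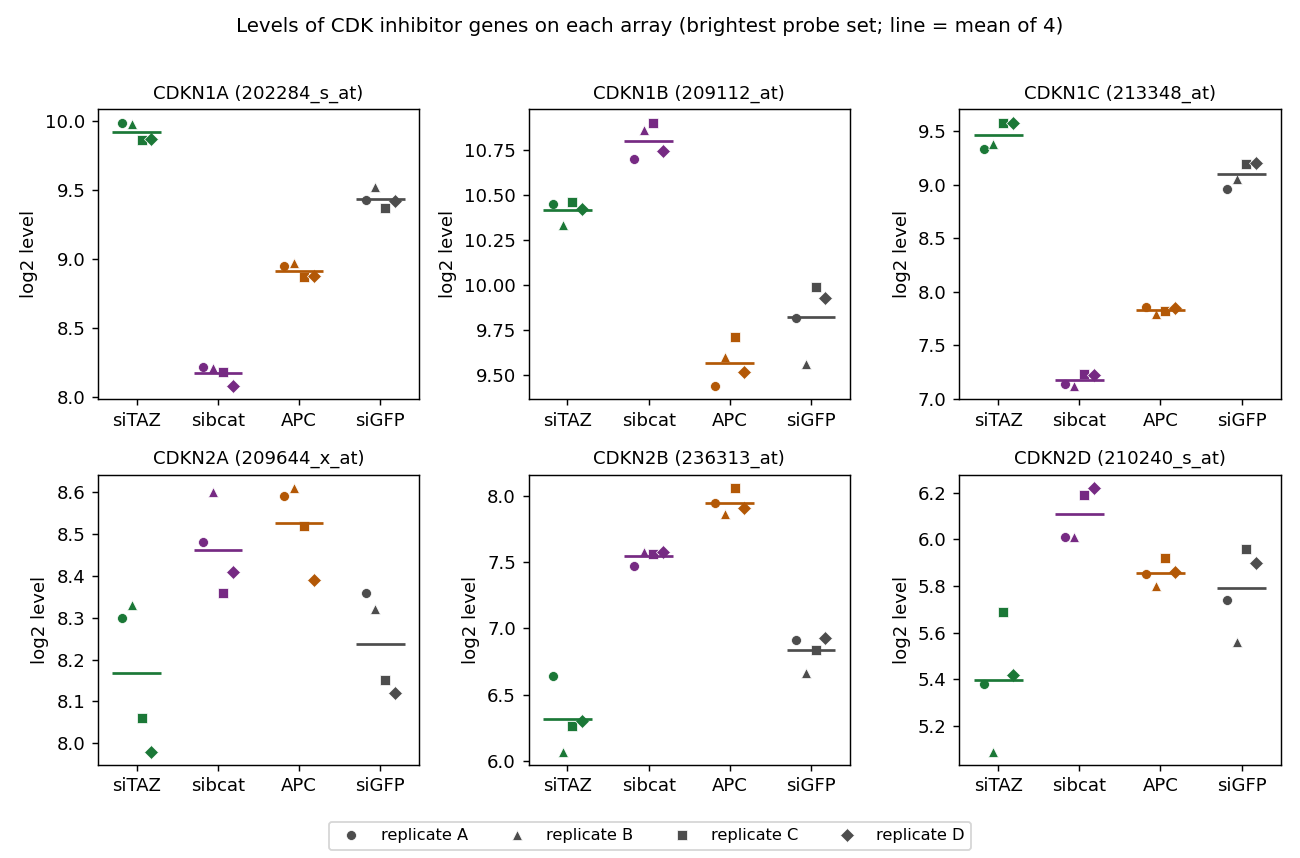
Log2 level of the 6 measured inhibitor genes on each array, by group (horizontal axis) and replicate letter (marker shape), with a line at each group's mean; vertical scales differ between panels. CDKN1A and CDKN1C are highest in siTAZ and lowest in sibcat cells, whereas CDKN2B is lowest in siTAZ and highest in APC cells.

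CDKN1A, which encodes p21, stood at 9.99, 9.98, 9.86 and 9.87 in siTAZ cells, 8.22, 8.21, 8.18 and 8.08 in sibcat cells and 8.95, 8.97, 8.87 and 8.88 in APC cells, against 9.43, 9.52, 9.37 and 9.42 in siGFP cells. Every array of each group was separated from every array of the other groups, so the order of levels was siTAZ, siGFP, APC and sibcat. The rise in siTAZ cells was 0.49 (SE 0.06, 1.40-fold, limma adjusted p = 8.08e-06). In sibcat cells CDKN1A fell by 1.26, to 41.7% of the siGFP signal (adjusted p = 4.27e-11), and in APC cells it fell by 0.52, to 69.9% (adjusted p = 2.73e-06). All 3 differences had an exact permutation p of 0.0286. APC cells kept 0.75 more on the log2 scale than sibcat cells (adjusted p = 1.97e-08), and siTAZ cells stood 1.75 above sibcat cells (adjusted p = 4.44e-13) and 1.01 above APC cells (adjusted p = 3.23e-10). The gene rests on a single probe set, of the kind that can cross-hybridise within a gene family.

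CDKN1C, which encodes p57, spanned 2.29 between the highest and lowest group mean. Its brightest probe set, 213348_at, stood at 9.33, 9.38, 9.58 and 9.58 in siTAZ cells, 7.14, 7.12, 7.23 and 7.22 in sibcat cells and 7.86, 7.79, 7.82 and 7.85 in APC cells, against 8.96, 9.05, 9.19 and 9.20 in siGFP cells. The groups did not overlap, and their order was that of CDKN1A. CDKN1C rose by 0.37 in siTAZ cells (SE 0.07, 1.29-fold, limma adjusted p = 0.00110). Its fall was 1.92 (log2 difference -1.92, adjusted p = 3.42e-12) in sibcat cells and, in APC cells, 1.27 (-1.27, adjusted p = 3.93e-10), to 41.5% of the siGFP signal. The exact permutation p was 0.0286 in each case. The siTAZ cells stood 2.29 above sibcat cells (adjusted p = 2.22e-13) and 1.64 above APC cells (adjusted p = 8.09e-12).

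Further probe sets of CDKN1C had the same directions. The 3 probe sets 216894_x_at, 219534_x_at and 213182_x_at also rose in siTAZ cells, by 0.41, 0.40 and 0.39 (limma adjusted p = 0.0196, 0.00638 and 0.0112). They fell in sibcat cells by 1.13, 1.29 and 1.22 and in APC cells by 0.97, 1.10 and 1.10, with adjusted p of at most 8.13e-06. The excess of APC over sibcat cells was 0.65 at 213348_at (adjusted p = 1.30e-06), but at the others it was 0.16, 0.19 and 0.12, which did not pass the test (adjusted p = 0.361, 0.178 and 0.474). The fifth probe set, 219533_at, lay between 3.51 and 4.64 on every array, below the median of all values, and was not called in any comparison.

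**Figure D2:**
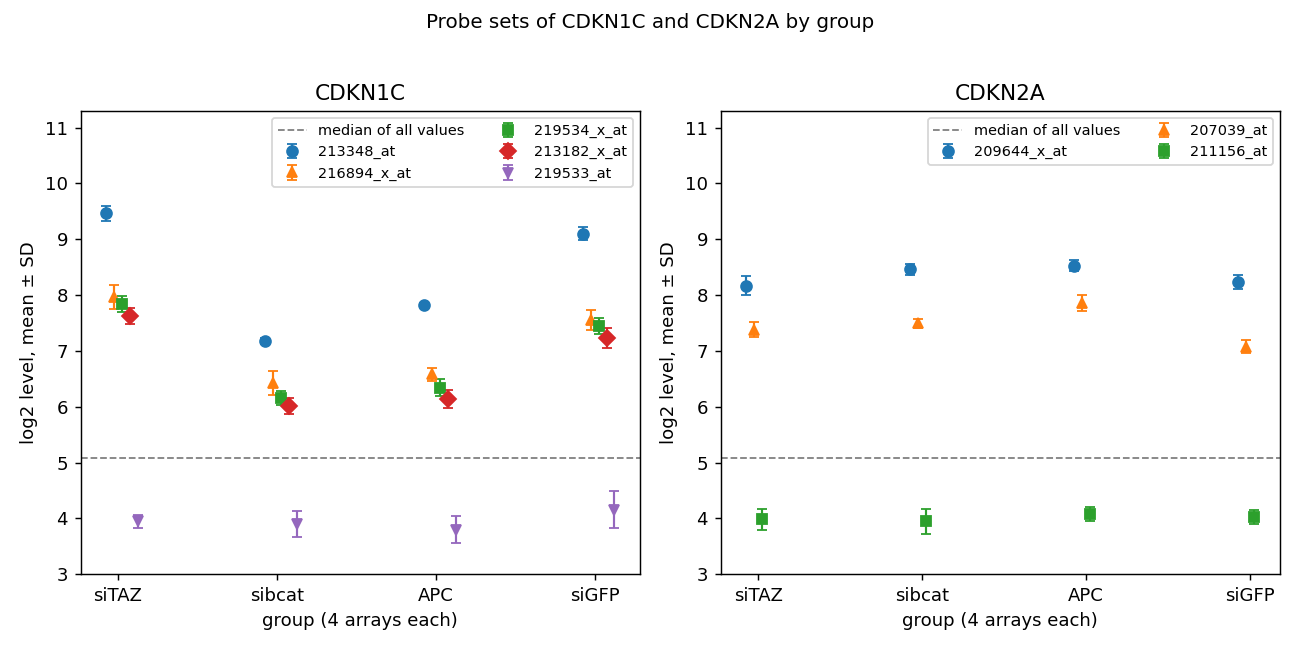
Mean log2 level (points) with SD (bars, 4 arrays) of every probe set of CDKN1C (left) and CDKN2A (right) in each group, with the median of all values as a dashed line. The 4 brighter CDKN1C probe sets share the order of the groups, the 2 brighter CDKN2A probe sets differ in siTAZ cells, and 1 probe set of each gene lies below the dashed line throughout.

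CDKN1B, which encodes p27, departed from the other CIP/KIP genes in sibcat cells. It stood at 10.45, 10.33, 10.46 and 10.42 in siTAZ cells, 10.70, 10.86, 10.90 and 10.74 in sibcat cells and 9.44, 9.60, 9.71 and 9.52 in APC cells, against 9.82, 9.56, 9.99 and 9.93 in siGFP cells. The siTAZ and sibcat arrays lay above all siGFP arrays, while the APC and siGFP arrays overlapped. The rise was 0.98 in sibcat cells (SE 0.09, 1.97-fold, limma adjusted p = 1.73e-07) and 0.59 in siTAZ cells (1.51-fold, adjusted p = 8.03e-05). Both had an exact permutation p of 0.0286. CDKN1B was thus the CIP/KIP gene for which sibcat cells stood above siTAZ cells, by 0.39 on the log2 scale (siTAZ minus sibcat -0.39, adjusted p = 0.00263).

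In APC cells CDKN1B was lower by 0.26 (95% interval -0.44 to -0.07, limma adjusted p = 0.0413, exact permutation p = 0.0857). That call was lost without any of siGFP replicate A, C or D or APC replicate A, B or D, where the difference ran from -0.27 to -0.20. The difference between APC and sibcat cells was larger, with CDKN1B 1.23 lower in APC cells (adjusted p = 5.58e-09), and it passed under every alternative tried.

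CDKN2B, which encodes p15, ran opposite to CDKN1A and CDKN1C in the 3 conditions. Its probe set 236313_at stood at 6.64, 6.07, 6.26 and 6.30 in siTAZ cells, 7.47, 7.58, 7.56 and 7.58 in sibcat cells and 7.95, 7.86, 8.06 and 7.91 in APC cells, against 6.91, 6.66, 6.84 and 6.93 in siGFP cells. No array of a group overlapped with another group, although siTAZ replicate A (6.64) came within 0.02 of siGFP replicate B (6.66). CDKN2B fell by 0.52 in siTAZ cells, to 69.9% of the siGFP signal (limma adjusted p = 7.50e-04). It rose by 0.71 in sibcat cells (SE 0.10, 1.64-fold, adjusted p = 2.19e-05) and by 1.11 in APC cells (2.16-fold, adjusted p = 1.19e-07). The exact permutation p was 0.0286 in all 3. APC cells exceeded sibcat cells by 0.40 (adjusted p = 0.00382). In siTAZ cells CDKN2B stood 1.23 lower than in sibcat cells (adjusted p = 2.62e-08) and 1.63 lower than in APC cells (adjusted p = 4.70e-10).

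The second CDKN2B probe set, 207530_s_at, lay between 3.62 and 4.57 on every array, below the median of all values, and was not called in any comparison. The mean of the 2 probe sets fell by 0.21 in siTAZ cells and no longer passed (limma adjusted p = 0.0817), so the siTAZ call rests on 236313_at. The rises in sibcat and APC cells passed with the mean as well.

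CDKN2A, which encodes p16 and p14ARF, had 2 bright probe sets. Both were higher in sibcat and APC cells than in siGFP cells, but they differed in siTAZ cells. The brighter, 209644_x_at, stood at 8.30, 8.33, 8.06 and 7.98 in siTAZ cells, 8.48, 8.60, 8.36 and 8.41 in sibcat cells and 8.59, 8.61, 8.52 and 8.39 in APC cells, against 8.36, 8.32, 8.15 and 8.12 in siGFP cells. It rose by 0.29 in APC cells (SE 0.09, limma adjusted p = 0.0243, exact permutation p = 0.0286). That call was lost without siGFP replicate C or D or APC replicate A or B, with differences of 0.25 to 0.27. It was higher by 0.23 in sibcat cells, which did not pass (adjusted p = 0.0791) but did with the replicate letter as a block (adjusted p = 0.00580). In siTAZ cells it differed by -0.07 (95% interval -0.26 to 0.12, adjusted p = 0.697).

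The probe set 207039_at of CDKN2A rose in all 3 conditions. It stood at 7.37, 7.19, 7.50 and 7.45 in siTAZ cells, 7.48, 7.38, 7.58 and 7.53 in sibcat cells and 7.75, 7.72, 7.99 and 7.96 in APC cells, against 6.99, 6.97, 7.18 and 7.17 in siGFP cells. Every siTAZ, sibcat and APC array lay above every siGFP array. The rises were 0.30 in siTAZ, 0.42 in sibcat and 0.78 in APC cells (SE 0.09 each, limma adjusted p = 0.0176, 0.00125 and 1.99e-06). At this probe set APC cells also exceeded sibcat cells (0.36, adjusted p = 0.00290). The calls in siTAZ and sibcat cells against siGFP depend on the probe set. The third, 211156_at, lay between 3.68 and 4.26 and was not called in any comparison. Which transcript each probe set reads was not examined, so p16 and p14ARF cannot be told apart here.

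CDKN2D, which encodes p19, moved in opposite directions with the 2 siRNAs. Its probe set 210240_s_at stood at 5.38, 5.09, 5.69 and 5.42 in siTAZ cells, 6.01, 6.01, 6.19 and 6.22 in sibcat cells and 5.85, 5.80, 5.92 and 5.86 in APC cells, against 5.74, 5.56, 5.96 and 5.90 in siGFP cells. The siTAZ and siGFP arrays overlapped, while the sibcat arrays lay above the siGFP arrays. It fell by 0.40 in siTAZ cells (SE 0.11, limma adjusted p = 0.0142, exact permutation p = 0.0571) and rose by 0.32 in sibcat cells (adjusted p = 0.0404, exact permutation p = 0.0286). In APC cells it differed by 0.07 (95% interval -0.16 to 0.30, adjusted p = 0.736). The clearest contrast was that between the siRNAs, with CDKN2D 0.71 lower in siTAZ than in sibcat cells (adjusted p = 6.38e-05).

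Without the replicate block, both calls of CDKN2D against siGFP depended on single arrays. The siTAZ call was lost without siGFP replicate C or siTAZ replicate B (-0.34 and -0.29), and the sibcat call without siGFP replicate A or B or sibcat replicate C or D (0.24 to 0.30). With the letters as a block and all arrays, both passed (adjusted p = 9.73e-04 in siTAZ and 0.00375 in sibcat cells). Over 20 alternatives, the block among them, the siTAZ call was lost in 7 and the sibcat call in 9. In 1 more the sibcat difference was negative and did not pass. With the arrays quantile-normalised again, the sibcat rise was 0.29 (limma adjusted p = 0.0688). With the ACTB difference as a covariate the siTAZ fall was 0.25 and did not pass (limma adjusted p = 0.199). The second probe set, 213586_at, lay between 3.65 and 4.34 and was not called. Its differences were 0.00 in siTAZ and -0.27 in sibcat cells.

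**Figure D3:**
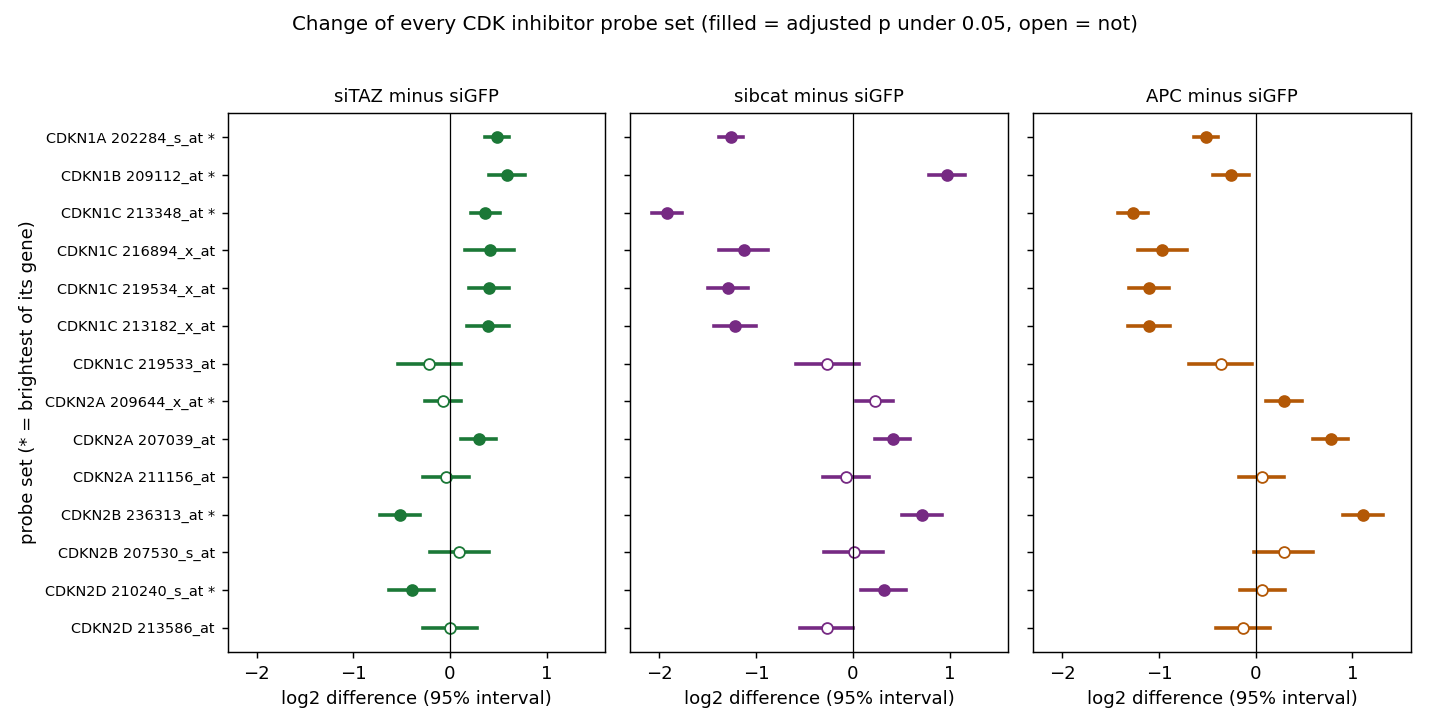
Log2 difference from siGFP (points) with 95% intervals from the limma fit for each of the 14 probe sets, in siTAZ, sibcat and APC cells from left to right; filled points passed an adjusted p under 0.05. The open points include all 4 probe sets that lay below the median of all values, and CDKN1B is the one CIP/KIP gene with a filled point on the right of 0 in sibcat cells.

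The direct comparisons among the 3 conditions set the responses apart. Between siTAZ and sibcat cells all 6 genes differed, 2 higher and 4 lower in siTAZ cells, where 34.1% of all genes were called, 17.6% higher and 16.6% lower. Between siTAZ and APC cells all 6 differed, 3 higher and 3 lower in siTAZ cells, beside 40% of all genes, 21.4% higher and 18.7% lower. Between APC and sibcat cells 4 of the 6 differed, 3 higher and 1 lower in APC cells, beside 39.4% of all genes, 18.8% higher and 20.6% lower. The arrays did not overlap for 6 genes between siTAZ and sibcat, 5 between APC and sibcat and 6 between siTAZ and APC cells, against 36.6%, 39.9% and 41% of all genes. CDKN2A differed between APC and sibcat cells by 0.07 (95% interval -0.12 to 0.25, limma adjusted p = 0.662) and CDKN2D by -0.25 (adjusted p = 0.0969, and 0.0144 with the replicate block). In siTAZ cells CDKN2A stood 0.30 lower than in sibcat cells (adjusted p = 0.0196), a call lost without siTAZ replicate C or D or sibcat replicate B (-0.26 to -0.23) and at 207039_at (-0.12, adjusted p = 0.400). CDKN2D stood 0.46 lower in siTAZ than in APC cells (adjusted p = 0.00274), which no longer passed with the ACTB covariate (-0.32, adjusted p = 0.0528).

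Genes whose pattern was most like that of an inhibitor were ranked by the mean absolute difference between their deviations from their own means over the 16 arrays. CDKN1A was closest to PERP, a gene of the desmosome (0.10 on the log2 scale), SLC7A11, the cystine transporter gene (0.11), and TOMM34 (0.12). CDKN1C was closest to EGR1, an immediate early transcription factor gene (0.14), followed by ZBED2 and FERMT2 (0.18 each). CDKN1B was closest to B4GAT1 (0.08), JAZF1 (0.09) and QKI, an RNA-binding protein gene (0.09). CDKN2B was closest to MTUS1 (0.07), with B3GNT5 (0.15) and SLC12A7 (0.17) farther off. CDKN2D was closest to NDST1 (0.07), NPTN (0.09) and ZDHHC3 (0.09). MTUS1 differed from siGFP by -0.55 in siTAZ, 0.68 in sibcat and 1.06 in APC cells, values close to those of CDKN2B. All these values come from the same arrays, and the ranking carries no test.

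Counts over gene lists stand beside 27% of all genes called in siTAZ cells (15.2% higher, 11.8% lower), 32.9% in sibcat cells (17.1% and 15.8%) and 30.7% in APC cells (15% and 15.7%), and nothing particular to a list is read from a count near these. A list of 21 genes held cyclin-dependent kinases, cyclins and regulators of these kinases, not all of them targets of the inhibitors. Of these, 4 rose and 5 fell in siTAZ cells (median difference 0.00). In sibcat cells 4 rose and 12 fell (-0.28), and in APC cells 5 rose and 6 fell (-0.01). CDK6, a kinase bound by the INK4 proteins, averaged 10.53 ± 0.01 in siTAZ, 10.38 ± 0.04 in sibcat and 11.55 ± 0.05 in APC cells, against 9.88 ± 0.05 in siGFP cells (SD, n = 4 each). It was higher in all 3 conditions, by 1.68 in APC cells (limma adjusted p = 1.08e-13), 0.66 in siTAZ cells (5.88e-08) and 0.51 in sibcat cells (6.86e-07). CDK4, the other INK4 partner, was named after its values were seen. It differed by 0.08 in siTAZ cells (0.360) and fell in sibcat cells, by 0.41 (1.36e-05), and in APC cells, by 0.50 (1.74e-06). The D-type cyclin gene CCND1 rose by 0.40 in siTAZ cells (2.36e-04) and fell in sibcat cells, by 1.44 (3.59e-11), and in APC cells, by 1.54 (9.29e-12). CCND1 thus had the directions of CDKN1A and CDKN1C in all 3 comparisons. Of 15 RB family and E2F genes, 1 rose and 5 fell in siTAZ cells (median -0.01), 0 rose and 9 fell in sibcat cells (-0.37), and 1 rose and 2 fell in APC cells (0.01). E2F8, a repressor of the E2F family, fell by 2.39 in siTAZ cells (adjusted p = 1.99e-10) and by 1.00 in sibcat cells (3.57e-06). RBL2, which encodes the pocket protein p130, fell by 1.34 in siTAZ cells (9.50e-07).

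**Figure D4:**
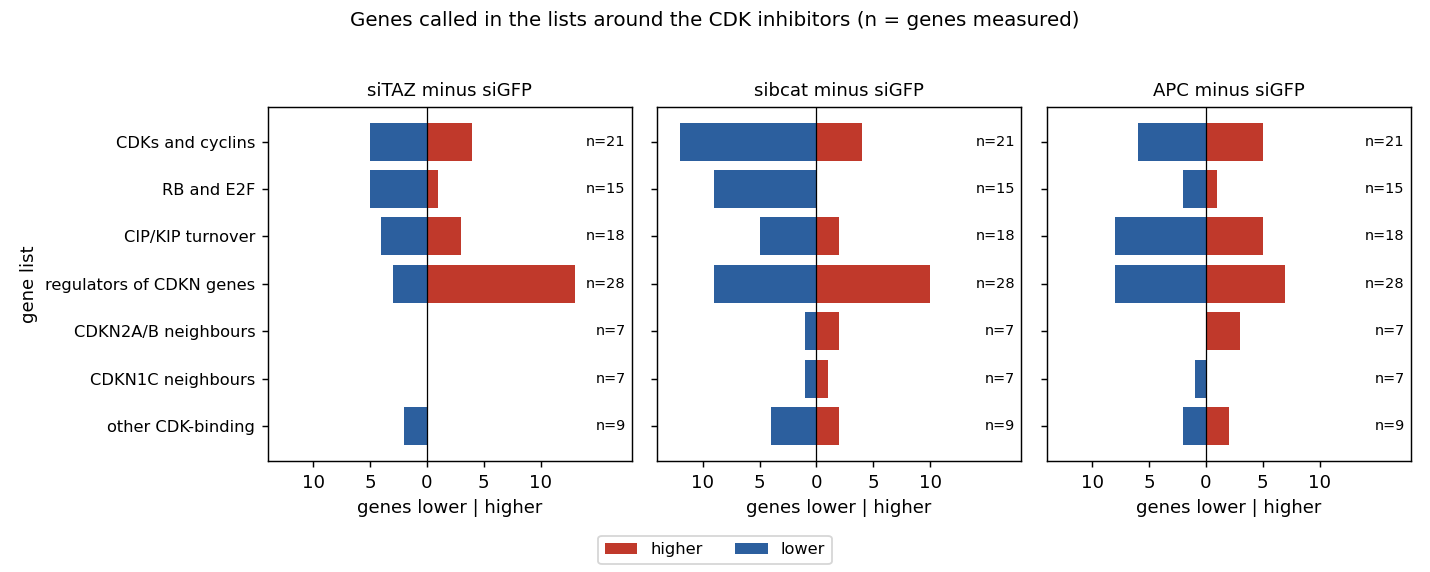
Number of genes called lower (bars to the left) and higher (bars to the right) in each list against siGFP, in siTAZ, sibcat and APC cells from left to right, with the number measured beside each bar. In the list of CDKs and cyclins, which also holds regulators of these kinases, 12 genes fell in sibcat cells. Of the regulators of inhibitor genes 13 rose in siTAZ cells.

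Regulators of inhibitor genes, 28 of which were measured, included 13 that rose and 3 that fell in siTAZ cells (median 0.13), 10 and 9 in sibcat cells (0.06) and 7 and 8 in APC cells (0.03). In APC cells ID2 fell by 4.01 (limma adjusted p = 1.11e-15) and ID1, of the same family of dominant-negative helix-loop-helix proteins, rose by 2.62 (4.90e-14). EGR1 fell by 2.15 in sibcat cells (5.81e-13) and by 1.17 in APC cells (5.31e-10). FOXO1, of a factor family that activates CDKN1B, rose by 0.75 in siTAZ cells (2.89e-05). MYC, named after its values were seen, was up by 0.24 in siTAZ cells (0.0177) and down in sibcat cells (-0.59, 2.81e-06), and it differed by 0.01 in APC cells (0.973). Of 18 ubiquitin ligase genes and cofactors that turn over CIP/KIP proteins, 3 rose and 4 fell in siTAZ cells (median 0.02), 2 and 5 in sibcat cells (-0.03) and 5 and 8 in APC cells (-0.11). CKS1B, the cofactor of SKP2, fell by 0.40 in sibcat cells (6.31e-06). SKP2, named after its values were seen, rose by 0.25 there (0.00134) and by 0.38 in APC cells (2.21e-05).

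Genes that neighbour the inhibitors were examined next. Of 7 neighbours of CDKN2A and CDKN2B, 0 were called in siTAZ cells, 2 rose and 1 fell in sibcat cells, and 3 rose in APC cells (medians -0.02, -0.02 and 0.15). MTAP, next to CDKN2A, fell by 0.53 in sibcat cells (limma adjusted p = 0.00118) and rose by 0.52 in APC cells (0.00152), so it did not share the direction of CDKN2B in sibcat cells. FOCAD rose by 0.48 in sibcat cells (3.12e-06). CDKN2B-AS1, an RNA antisense to CDKN2B, was higher by 0.29 in sibcat cells (0.0258) and by 0.30 in APC cells (0.0264), at a probe set whose means, 2.73 in both and 2.44 in siGFP cells, lay far below the median of all values. It makes up 1 of the rises counted in each of these conditions. KLHL9 rose by 0.27 in APC cells (0.00592). Of 7 measured genes of the imprinted domain of CDKN1C, 0 were called in siTAZ cells, 1 rose and 1 fell in sibcat cells and 1 fell in APC cells (medians -0.02, 0.02 and -0.01). PHLDA2, the one that fell in APC cells, did so by 0.60 (1.42e-04), and KCNQ1OT1 rose by 0.39 in sibcat cells (6.36e-04). Of 9 other genes with CDK-binding products or related names, 0 rose and 2 fell in siTAZ cells, 2 and 4 in sibcat cells and 2 and 2 in APC cells (medians -0.16, -0.16 and -0.04). CDK2AP1, which encodes a protein that binds CDK2, fell by 1.03 in sibcat cells (5.59e-10).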

How the data were processed

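The authors deposited 1 table of log2 expression levels, a value per probe set and array, made with RMA per the submitters' processing notes, which give no version. Their range (1.8 to 14.56) shows a log2 scale. RMA quantile-normalises the arrays, which hides any shift in overall RNA content. Precision is limited by the number of arrays.

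Of 54675 probe sets, 41097 were paired with 1 gene, 1801 with several, and 19775 genes were measured. No probe set was filtered. All arrays entered 1 limma fit (limma 3.58.1, R 4.3.3: lmFit, eBayes, no block), with Benjamini-Hochberg adjustment over all probe sets within each comparison. Every adjusted p, also where written as a bare value in brackets after a change, comes from it, and intervals are at 95%. Exact permutation tests are two-sided. Same-lettered arrays deviated together from their group means (24 of 24 pairs with a correlation over 0.1, from 0.12 to 0.40). Pairs with different letters ran from -0.45 to 0.37. Between groups, A and B arrays correlated positively with one another, as did C and D arrays. Every pair of an A or B array with a C or D array was negative. Only 7 of 16 arrays correlated best with an array of another group that had their own letter. The values therefore separate A and B from C and D, while pairing by the single letter is not settled by them. What this split stands for is not stated. The main fit, the permutation tests and the fits without single arrays left it out. The fit was repeated with a replicate block as an alternative, and also in A and B alone and in C and D alone. Replicates are titled as biological, but separate cultures are not described, so the p-values reflect variation among these arrays, part of which may be technical.

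Members and lists were chosen with earlier results of these data known. Named genes were the members, the targeted genes, the 3 most changed called genes per list and comparison, the 3 genes most like each member called in at least 2 comparisons with siGFP and spanning 0.5, RNA quality probe sets and cell type markers. Promoter sequences are from RefSeq (GRCh38.p14), with 5 of the 6 measured genes matched. Results on 1 further gene list are not reported here. No genome was used, and promoter positions are those of the RefSeq table. Figures were drawn with matplotlib 3.10.9.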

Additional observations from a re-analysis of the deposited data

Results flagged for a closer look

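For 9 gene-by-pair cases the change against siGFP passed the test in opposite directions in a pair of conditions and the direct difference passed too. CDKN1A differed by 1.75 between siTAZ and sibcat cells and by 1.01 between siTAZ and APC cells. CDKN1C differed by 2.29 and 1.64 in the same comparisons, CDKN2B by -1.23 and -1.63, and CDKN2D by -0.71 between siTAZ and sibcat cells. CDKN1B differed by -1.23 between APC and sibcat cells and by 0.85 between siTAZ and APC cells, and both rest on its small fall in APC cells against siGFP for the opposite direction.

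A single array stood far from the other 3 of its group in 3 of 56 groups examined, where chance flags about 1 in 20. All 3 were APC arrays. CDKN1C probe set 216894_x_at was lowest in APC replicate C (6.41, others up to 6.65), CDKN1C probe set 219534_x_at was highest in APC replicate B (6.58, others from 6.24), and CDKN2D probe set 213586_at was lowest in APC replicate C (3.74, others up to 4.10).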

How the results depend on the processing

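The number of the 6 genes called stayed within 1.5 times the reported count in most alternatives. In siTAZ against siGFP cells the count was 3 in place of 5 in replicates A and B alone and with the mean of a gene's probe sets. In APC against siGFP cells it was 3 in place of 5 in replicates A and B alone. Leaving out single arrays gave 4 to 5 genes in siTAZ cells, 4 to 5 in sibcat cells and 3 to 5 in APC cells against siGFP (3 without siGFP replicate C or D or APC replicate A or B), 5 to 6 between siTAZ and sibcat, 4 between APC and sibcat and 6 between siTAZ and APC. Without probe sets that can cross-hybridise, CDKN1A had no probe set and 3 genes in place of 6 differed between siTAZ and sibcat cells. In that setting CDKN2A turned to 0.30 in siTAZ cells, and CDKN2D, then read by its dim probe set, turned to -0.27 in sibcat cells, 0.27 between siTAZ and sibcat and 0.13 between siTAZ and APC. The replicate block gave 5, 6 and 5 called genes in siTAZ, sibcat and APC cells and changed no call beyond the 2 given above. With the ACTB difference as a covariate, CDKN2A fell by 0.26 in siTAZ cells (limma adjusted p = 0.0235) and CDKN2D no longer passed there. Against siGFP, CDKN1A, CDKN1C, CDKN1B in siTAZ and sibcat cells, and CDKN2B in sibcat and APC cells passed in every alternative that measured them. CDKN1B in APC cells did not pass in 10 of 20 alternatives. CDKN2A in sibcat cells passed in 5 alternatives, the block among them.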
